A study of Mus musculus with 12 samples.

Results

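The T cell receptor signalling components described here are 43 genes of the receptor complex, its coreceptor, the kinases and adaptors that act next to it, and the proteins that restrain it. They were taken by gene symbol from the 56980 genes of the deposited count table, each matched 1 row, and all 43 passed the filter on low counts. RNA had been sequenced from CD8+ T cells sorted out of tumours in wild-type C57BL/6J mice, as living (DAPI-negative) CD45.2+ CD8+ cells parted by staining for asialo-GM1 (asGM1), which is a surface glycolipid. The 4 groups of 3 libraries were asGM1+ and asGM1- cells from tumours of Flt3L-expressing Panc02 cells, and asGM1+ and asGM1- cells from tumours of Panc02, a mouse pancreatic cancer cell line. Flt3L is a growth factor of dendritic cells. The labels name no T cell receptor marker in the sort. They are silent on whether each replicate is its own mouse, so the p-values measure only the spread between these samples, which may be technical.

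A T cell recognises a peptide on an MHC molecule through its receptor, whose CD3 and zeta chains carry the signal into the cell. The kinase Lck, brought in by the CD8 coreceptor, phosphorylates those chains, ZAP-70 binds them, and ZAP-70 then phosphorylates the scaffolds LAT and SLP-76, from which calcium, Ras and NF-kappaB signals branch. Csk, phosphatases, ubiquitin ligases and diacylglycerol kinases limit the signal, and in tumours the balance of these steps is studied because CD8+ T cells there meet antigen for long periods.

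Library totals lay between 98663008 and 102896605 estimated counts, and the 43 genes took 1.71% to 2.35% of them. Their lowest value in any library was 25.1 CPM (counts scaled to library size, with TMM factors), so none was near the detection limit. In bulk RNA, fewer T cells among the sorted cells and less RNA per T cell cannot be told apart. Marker genes of other cell types differed between groups. The sums count all transcripts of the listed genes, whichever cells they came from. The 15 plasmacytoid dendritic cell genes summed to 836 to 958 CPM in asGM1+ and 1843 to 2017 CPM in asGM1- libraries of Flt3L Panc02 tumours, and to 801 to 921 CPM in asGM1+ and 1083 to 1181 CPM in asGM1- libraries of Panc02 tumours. Siglech of that list stood at 1.60 to 4.56 CPM in asGM1+ and 253 to 290 CPM in asGM1- libraries of Flt3L Panc02 tumours. In Panc02 tumours it stood at 0.0901 to 3.10 CPM in asGM1+ and 40.4 to 70.1 CPM in asGM1- libraries. The 15 macrophage and monocyte genes summed to 1862 to 2649 CPM in asGM1+ and 1630 to 2494 CPM in asGM1- libraries of Flt3L Panc02 tumours. In Panc02 tumours they summed to 3997, 2872 and 1978 CPM in asGM1+ replicates 1, 2 and 3, and to 1846 to 2216 CPM in asGM1- libraries. Libraries also differed by gene length. Against the mean of all libraries, the shortest genes (merged exons up to 2568 bases) stood at a median log2 deviation of 0.30 and the longest genes (over 6641 bases) at -0.20 in asGM1+ replicate 3 of Flt3L Panc02 tumours, and at -0.22 and 0.14 in asGM1- replicate 2 of those tumours. Of the 43 genes, 3 (Cd3d, Cd8b1 and Cd2) were among the shortest and 17 among the longest. The part of gene length in the results below was not tested.

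**Figure D1:**
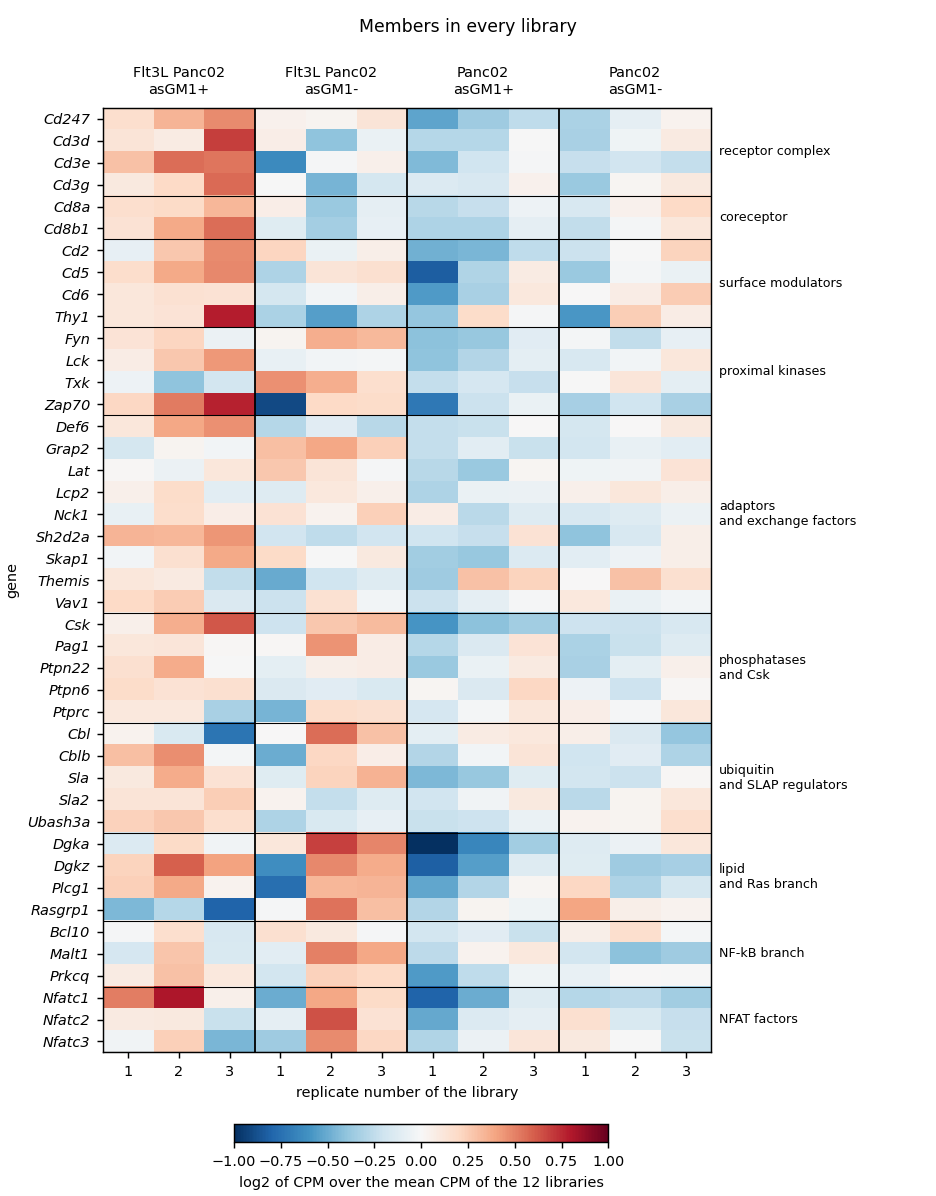
Heat map of the 43 genes (rows, grouped by role) in the 12 libraries (columns, 3 replicates of each group), with colour giving the log2 of a library's CPM over the gene's mean CPM. Red cells gather in the asGM1+ libraries of Flt3L Panc02 tumours for the receptor complex and coreceptor, while Rasgrp1 and Txk are blue there.

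In asGM1+ cells, the receptor chain genes Cd3e and Cd247, the coreceptor gene Cd8b1, Cd2, Lck, Def6, Skap1 and Nfatc1 rose in Flt3L Panc02 relative to Panc02 tumours, together with the inhibitor genes Csk, Ubash3a and Dgka. By edgeR's quasi-likelihood test (adjusted p under 0.05 over all genes), 11 of the 43 rose, 0 fell and 32 were not called, where 6.32% of the 20411 genes tested were called, 2.08% higher and 4.24% lower. Their median log2 fold change was 0.39, against -0.03 over all genes, and 39 of 43 were positive. In 24 of the 43 genes the 3 Flt3L Panc02 libraries all lay above the 3 Panc02 libraries (14.2% of all genes did), and in 0 all lay below (16.5%). In asGM1- cells 1 gene rose, 0 fell and 42 were not called (3.73% of all genes were called, 1.88% higher and 1.86% lower), with a median of 0.12 against 0.0016 over all genes. The Flt3L Panc02 libraries all lay above in 7 genes (13.8% of all genes) and below in 2 (12.9%). These comparisons share no library. The 11 calls were sensitive to single libraries: the count was 1 without asGM1+ replicate 1 or 2 of Panc02 tumours or replicate 2 or 3 of Flt3L Panc02 tumours, and 18 without asGM1+ replicate 3 of Panc02 tumours. It was 0 in a fit to these 6 libraries alone, which called 1 gene in all, and 20 by DESeq2 and 20 by limma-voom (2952 and 3120 of all genes). The shares over all genes given here and below were not matched to the expression level of the 43. Under a filter of 5 CPM in 3 libraries 13 of the 43 rose and 0 fell, where 388 and 715 of 10821 genes did. The count of 1 in asGM1- cells was 2 by DESeq2, 9 by limma-voom and 0 in a fit to those 6 libraries alone (2179, 3536 and 809 of all genes). It was 0 without any 1 of those libraries other than replicate 1 of Flt3L Panc02 tumours, without which it was 2.

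Between the gates, asGM1+ cells of Flt3L Panc02 tumours held more transcripts of CD3 epsilon, the CD8 beta chain, Def6, Sh2d2a and the inhibitor Ubash3a than asGM1- cells, and fewer of the kinase Txk, the adaptor Grap2 and the Ras activator Rasgrp1. Of the 43 genes 5 rose, 3 fell and 35 were not called, where 8.65% of all genes were called, 2.79% higher and 5.86% lower, with a median log2 fold change of 0.17 against -0.01 over all genes. In 16 genes the asGM1+ libraries all lay above the asGM1- libraries (11.4% of all genes did) and in 3 all below (17.3%). The 8 calls became 1, 3, 5, 2 and 2 without asGM1- replicate 2, asGM1- replicate 3 and asGM1+ replicates 1, 2 and 3, and 1 in a fit to these 6 libraries alone. Under a filter of 5 CPM in 3 libraries 5 rose and 3 fell, where 408 and 983 of 10821 genes did. This comparison shares the asGM1+ libraries of Flt3L Panc02 tumours with the tumour comparison in asGM1+ cells. For Cd3e, Cd8b1, Def6 and Ubash3a, called in both, the calls are therefore not independent. In Panc02 tumours edgeR called 0 of the 43 genes between the gates (0.882% of all genes were called, 0.0441% higher and 0.838% lower). At an unadjusted p under 0.05 were 5 of the 43, and 2036 of all 20411 genes. DESeq2 called 1 and limma-voom 3 of the 43 there, all lower in asGM1+ cells. Of all genes DESeq2 called 451 lower and 123 higher, and limma-voom 545 lower and 286 higher. The median was -0.15 against 0.02 over all genes, 34 of the 43 were negative, and in 9 the asGM1+ libraries all lay below the asGM1- libraries (8.92% of all genes did) and in 0 all above (8.67%).

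**Figure D2:**
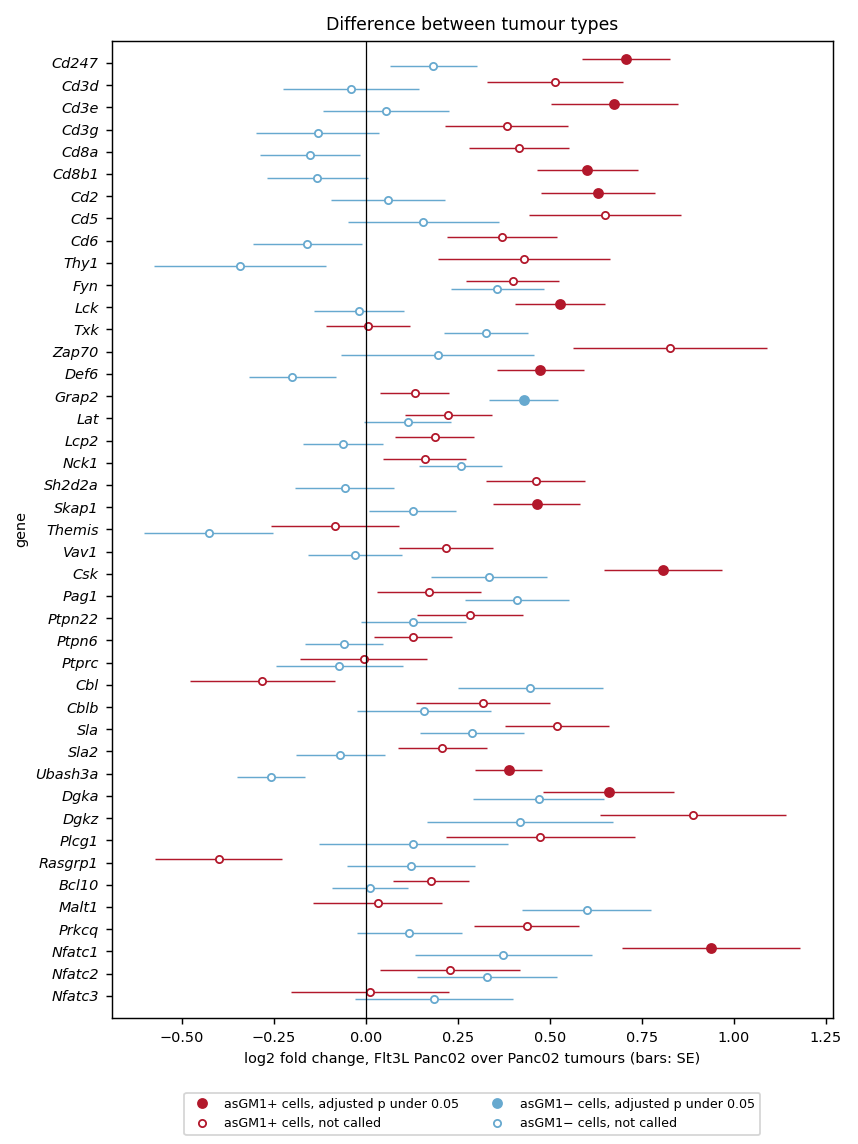
Log2 fold change of each of the 43 genes (rows) between Flt3L Panc02 and Panc02 tumours, with SE bars, in asGM1+ cells (red) and asGM1- cells (blue), where filled points passed an edgeR adjusted p of 0.05. The 11 filled red points lie between 0.39 and 0.94, and the only filled blue point is Grap2 at 0.43.

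The receptor complex is described first. Cd3e encodes CD3 epsilon, the chain found in both CD3 dimers of the receptor. It stood at 1172, 1412 and 1386 CPM in asGM1+ and 614, 949.9 and 992 CPM in asGM1- cells of Flt3L Panc02 tumours, against 704, 835 and 947 CPM in asGM1+ and 814, 837 and 811 CPM in asGM1- cells of Panc02 tumours. The asGM1+ libraries of Flt3L Panc02 tumours overlapped with no other library, and asGM1- replicate 1 of those tumours was the lowest of the 12. Between tumour types in asGM1+ cells the log2 fold change was 0.68 ± 0.17 (SE; edgeR adjusted p = 0.0419), and between gates in Flt3L Panc02 tumours 0.63 ± 0.17 (edgeR adjusted p = 0.0425). The gate call was retained in 1 of the 6 runs that left out 1 library.

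Cd247 encodes the zeta chain, which carries most of the receptor's signalling motifs. It stood at 420.3, 476 and 521 CPM in asGM1+ and 386, 382 and 409 CPM in asGM1- cells of Flt3L Panc02 tumours, against 260.1, 293 and 315 CPM in asGM1+ and 302, 352 and 384 CPM in asGM1- cells of Panc02 tumours. Both Flt3L Panc02 groups lay above asGM1+ cells of Panc02 tumours with no overlap, and the asGM1+ libraries of Flt3L Panc02 tumours were the highest. In asGM1+ cells it rose by a log2 fold change of 0.71 ± 0.12 (SE; edgeR adjusted p = 0.00942), and the call was retained in each of the 6 runs that left out 1 library (edgeR adjusted p between 0.00607 and 0.0452). In a fit to these 6 libraries alone it was not called (edgeR adjusted p = 0.0544). Between gates of Flt3L Panc02 tumours it had 0.27 ± 0.12 and was not called (edgeR adjusted p = 0.185).

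The CD3 delta and gamma chains each pair with CD3 epsilon. Cd3d stood at 938, 909 and 1389 CPM in asGM1+ and 898, 648 and 820.4 CPM in asGM1- cells of Flt3L Panc02 tumours, against 704, 705 and 857 CPM in asGM1+ and 688, 832 and 914 CPM in asGM1- cells of Panc02 tumours. Its highest library, asGM1+ replicate 3 of Flt3L Panc02 tumours, lay well above the others of its group. Cd3g stood at 1697, 1816 and 2351 CPM in asGM1+ and 1585, 1148 and 1406 CPM in asGM1- cells of Flt3L Panc02 tumours, against 1442, 1421 and 1633 CPM in asGM1+ and 1226, 1605 and 1699.8 CPM in asGM1- cells of Panc02 tumours. For both genes the asGM1+ libraries of Flt3L Panc02 tumours lay above the asGM1- libraries of those tumours and the asGM1+ libraries of Panc02 tumours, without a call, and overlapped the asGM1- libraries of Panc02 tumours. Cd3d had a log2 fold change of 0.51 ± 0.19 (SE) between tumour types in asGM1+ cells and 0.45 ± 0.19 between gates in Flt3L Panc02 tumours (edgeR adjusted p = 0.116 and 0.155). Cd3g had 0.38 ± 0.17 and 0.50 ± 0.17 (edgeR adjusted p = 0.186 and 0.0879). Summed, the 4 chain genes averaged 4829 ± 734 CPM (SD, n = 3) in asGM1+ and 3413 ± 257 CPM in asGM1- cells of Flt3L Panc02 tumours, against 3372 ± 337 CPM and 3489 ± 408 CPM in Panc02 tumours.

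The coreceptor chains CD8 alpha and CD8 beta bind MHC class I and bring Lck to the receptor. Cd8b1, the beta chain gene, stood at 1793, 2102 and 2392 CPM in asGM1+ and 1492, 1278 and 1529 CPM in asGM1- cells of Flt3L Panc02 tumours, against 1309.8, 1308 and 1524 CPM in asGM1+ and 1366, 1597 and 1749 CPM in asGM1- cells of Panc02 tumours. All 3 asGM1+ libraries of Flt3L Panc02 tumours were higher than the other 9. The log2 fold change was 0.60 ± 0.14 (SE) between tumour types in asGM1+ cells and 0.55 ± 0.14 between gates in Flt3L Panc02 tumours (edgeR adjusted p = 0.0291 and 0.0315). Cd8b1 is among the shortest of these genes, and over all genes up to 2568 bases the median was 0.15 and 0.22 in these comparisons. Cd8a, the alpha chain gene, which some mouse dendritic cells also express, stood at 2276, 2316 and 2562 CPM in asGM1+ and 2131, 1569 and 1910.3 CPM in asGM1- cells of Flt3L Panc02 tumours, against 1673, 1732 and 1957 CPM in asGM1+ and 1812, 2095 and 2324 CPM in asGM1- cells of Panc02 tumours. It was not called, with 0.42 ± 0.14 and 0.35 ± 0.14 in the same comparisons (edgeR adjusted p = 0.0879 and 0.134). In Panc02 tumours Cd8a and Cd8b1 had -0.22 ± 0.14 and -0.19 ± 0.14 between the gates, neither called (edgeR adjusted p = 0.667 and 0.761).

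**Figure D3:**
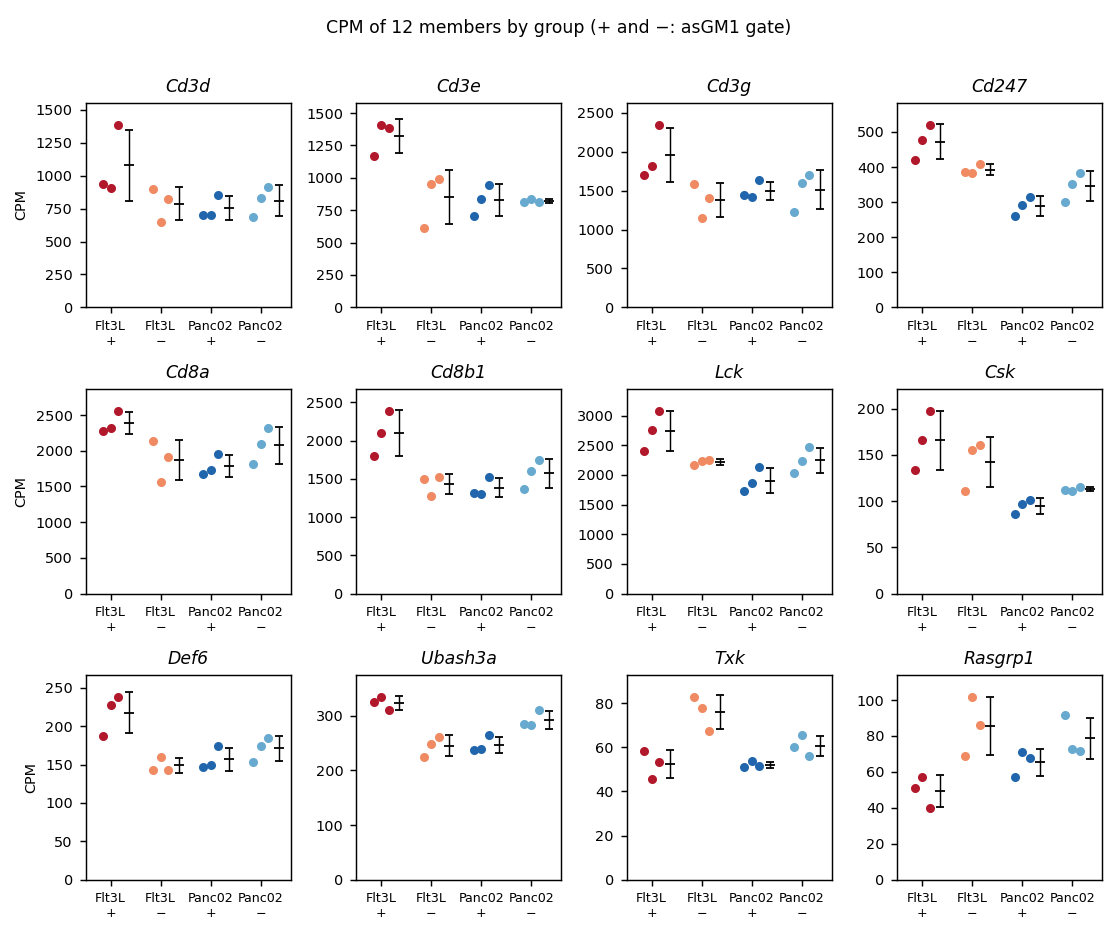
CPM of 12 of the genes in every library (points), by tumour type and asGM1 gate, with the mean and SD of each group in black beside its points. For all genes shown but Txk and Rasgrp1 the asGM1+ libraries of Flt3L Panc02 tumours lie above all those of Panc02 asGM1+ cells. For Txk and Rasgrp1 they lie below those of the asGM1- cells from the same tumour type.

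Among the surface proteins that tune the receptor, Cd2, an adhesion receptor for CD48 in mice, rose in asGM1+ cells of Flt3L Panc02 tumours. It stood at 622, 795 and 914 CPM in asGM1+ and 765, 632 and 686 CPM in asGM1- cells of Flt3L Panc02 tumours, against 472, 479.7 and 553 CPM in asGM1+ and 569, 659.6 and 769.6 CPM in asGM1- cells of Panc02 tumours. The lowest 3 libraries of the 12 were those of asGM1+ cells from Panc02 tumours. The log2 fold change between tumour types in asGM1+ cells was 0.63 ± 0.16 (SE; edgeR adjusted p = 0.0378), and between gates 0.16 ± 0.15 in Flt3L Panc02 and -0.41 ± 0.15 in Panc02 tumours, where it was not called (edgeR adjusted p = 0.553 and 0.375). The inhibitory receptor gene Cd5 had 0.65 ± 0.21 between tumour types in asGM1+ cells, and the related Cd6 had 0.37 ± 0.15, neither called (edgeR adjusted p = 0.0819 and 0.153). Thy1, a glycolipid-anchored surface protein of T cells, had 0.77 ± 0.23 between gates in Flt3L Panc02 tumours without a call (edgeR adjusted p = 0.0663), and its asGM1+ replicate 3 stood at 264 CPM, against 166 and 168 CPM in asGM1+ replicates 1 and 2.

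Of the 4 kinase genes, Lck rose between tumour types in asGM1+ cells and Txk fell between the gates of Flt3L Panc02 tumours. Lck stood at 2403, 2751 and 3084 CPM in asGM1+ and 2167, 2230.0 and 2254 CPM in asGM1- cells of Flt3L Panc02 tumours, against 1728, 1858 and 2129.9 CPM in asGM1+ and 2038, 2232 and 2466 CPM in asGM1- cells of Panc02 tumours. Its asGM1+ libraries of Flt3L Panc02 tumours were above all of Panc02 asGM1+ cells, with a log2 fold change of 0.53 ± 0.12 (SE; edgeR adjusted p = 0.0318). The asGM1- groups of the tumour types overlapped, with -0.02 ± 0.12 (edgeR adjusted p = 0.958). Zap70 stood at 362, 448 and 535 CPM in asGM1+ and 168, 359 and 356 CPM in asGM1- cells of Flt3L Panc02 tumours, against 190.4, 269 and 299 CPM in asGM1+ and 248, 273 and 249.7 CPM in asGM1- cells of Panc02 tumours. Its asGM1- replicate 1 of Flt3L Panc02 tumours was the lowest of the 12, below replicates 2 and 3 of its own group. The log2 fold changes of 0.83 ± 0.26 between tumour types in asGM1+ cells and 0.61 ± 0.26 between gates in Flt3L Panc02 tumours were not called (edgeR adjusted p = 0.0834 and 0.175). The difference between tumour types passed in DESeq2 and in limma-voom (adjusted p = 0.0187 and 0.0218). Fyn, a second Src-family kinase, had 0.40 ± 0.13 in asGM1+ and 0.36 ± 0.13 in asGM1- cells between tumour types, without a call (edgeR adjusted p = 0.0818 and 0.139).

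Txk is a Tec-family kinase that acts on phospholipase C gamma. It stood at 58.1, 45.5 and 53.1 CPM in asGM1+ and 82.9, 77.7 and 67.6 CPM in asGM1- cells of Flt3L Panc02 tumours, against 51.1, 53.8 and 51.4 CPM in asGM1+ and 60.00, 65.5 and 56.3 CPM in asGM1- cells of Panc02 tumours. The asGM1- libraries of Flt3L Panc02 tumours were the highest of the 12, and both asGM1+ groups lay between 45.5 and 58.1 CPM. Between the gates of Flt3L Panc02 tumours it fell by 0.54 on the log2 scale (SE 0.11; edgeR adjusted p = 0.0147), and in the mean of both tumour types the log2 fold change was -0.38 ± 0.08 (edgeR adjusted p = 0.0163), a call retained in each of the 12 runs that left out 1 library.

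Among the 9 adaptor and exchange factor genes, Def6 and Sh2d2a rose and Grap2 fell between the gates of Flt3L Panc02 tumours, and Def6 and Skap1 rose between tumour types in asGM1+ cells. Def6, an exchange factor gene, stood at 188, 227 and 238 CPM in asGM1+ and 142, 160.3 and 143 CPM in asGM1- cells of Flt3L Panc02 tumours, against 147, 149 and 174 CPM in asGM1+ and 153, 174 and 185 CPM in asGM1- cells of Panc02 tumours. The asGM1+ libraries of Flt3L Panc02 tumours were the highest 3 of the 12, with log2 fold changes of 0.55 ± 0.12 (SE) between gates and 0.47 ± 0.12 between tumour types (edgeR adjusted p = 0.0161 and 0.0394). Sh2d2a, the T cell specific adaptor that binds Lck, stood at 1759, 1751 and 1888 CPM in asGM1+ and 1212, 1166 and 1212 CPM in asGM1- cells of Flt3L Panc02 tumours, against 1205, 1182 and 1534 CPM in asGM1+ and 1047, 1243 and 1448 CPM in asGM1- cells of Panc02 tumours. It too was highest in these 3 libraries, and rose between gates by a log2 fold change of 0.59 ± 0.13 (edgeR adjusted p = 0.0212), the only gate call in this tumour type that a fit to its 6 libraries alone retained (edgeR adjusted p = 0.0275). Between tumour types in asGM1+ cells it had 0.46 ± 0.13 and was not called (edgeR adjusted p = 0.0646).

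Skap1, an adaptor of integrin activation, stood at 526, 601 and 699 CPM in asGM1+ and 612, 537 and 574 CPM in asGM1- cells of Flt3L Panc02 tumours, against 423, 413 and 488 CPM in asGM1+ and 499.5, 518 and 560.2 CPM in asGM1- cells of Panc02 tumours. The 3 asGM1+ libraries of Panc02 tumours were the lowest of the 12, and the log2 fold change between tumour types in asGM1+ cells was 0.46 ± 0.12 (SE; edgeR adjusted p = 0.0427). Grap2, also called Gads, links SLP-76 to LAT. It stood at 36, 41.5 and 39.96 CPM in asGM1+ and 49.99, 53.2 and 47.9 CPM in asGM1- cells of Flt3L Panc02 tumours, against 34.5, 37.9 and 34.8 CPM in asGM1+ and 35.8, 38.6 and 37.9 CPM in asGM1- cells of Panc02 tumours. The asGM1- libraries of Flt3L Panc02 tumours lay above the other 9. Grap2 had a log2 fold change of -0.36 ± 0.09 between gates in Flt3L Panc02 tumours and of 0.43 ± 0.09 between tumour types in asGM1- cells (edgeR adjusted p = 0.0349 and 0.0329), comparisons that share the asGM1- libraries of Flt3L Panc02 tumours. Each call was retained in 1 of 6 runs that left out 1 library.

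The scaffold genes were not called in any comparison. Lat stood at 255, 243 and 274 CPM in asGM1+ and 305, 277 and 251 CPM in asGM1- cells of Flt3L Panc02 tumours, against 209, 196 and 256 CPM in asGM1+ and 245, 247 and 278 CPM in asGM1- cells of Panc02 tumours. All 4 groups overlapped at least 1 other, and its log2 fold changes in the 4 single comparisons lay between -0.22 and 0.22. Lcp2, which encodes SLP-76, Vav1, a Rac exchange factor, and Nck1, an adaptor to the actin cytoskeleton, had log2 fold changes of 0.19 ± 0.11, 0.22 ± 0.13 and 0.16 ± 0.11 (SE) between tumour types in asGM1+ cells (edgeR adjusted p = 0.314, 0.327 and 0.412). Themis, a regulator of receptor signal strength known from thymocytes, had -0.43 ± 0.17 between tumour types in asGM1- cells, where its Flt3L Panc02 libraries all lay below the Panc02 ones without a call (edgeR adjusted p = 0.195).

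Of the negative regulators near the receptor, Csk and Ubash3a rose in asGM1+ cells of Flt3L Panc02 relative to Panc02 tumours. Csk, the kinase that phosphorylates the inhibitory tyrosine of Lck, stood at 133, 166 and 198 CPM in asGM1+ and 111, 155 and 160.4 CPM in asGM1- cells of Flt3L Panc02 tumours, against 85.7, 97 and 102 CPM in asGM1+ and 112, 111 and 116 CPM in asGM1- cells of Panc02 tumours. The 3 asGM1+ libraries of Panc02 tumours were the lowest of the 12, with a log2 fold change between tumour types in asGM1+ cells of 0.81 ± 0.16 (SE; edgeR adjusted p = 0.0173). Ubash3a, a suppressor of receptor signalling of the STS family, stood at 325, 335 and 310.3 CPM in asGM1+ and 224, 249 and 262 CPM in asGM1- cells of Flt3L Panc02 tumours, against 237, 239.5 and 264 CPM in asGM1+ and 284, 282 and 312 CPM in asGM1- cells of Panc02 tumours. It was the gene of the 43 with the smallest adjusted p in the test of whether the gate difference depended on tumour type. It rose between gates in Flt3L Panc02 tumours by a log2 fold change of 0.40 ± 0.09 and between tumour types in asGM1+ cells by 0.39 ± 0.09 (edgeR adjusted p = 0.022 and 0.0341). In Panc02 tumours its asGM1+ libraries all lay below the asGM1- libraries, at -0.24 ± 0.09 without a call (edgeR adjusted p = 0.367).

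The phosphatases, Pag1, the ubiquitin ligases and the SLAP adaptors were not called in any comparison. Ptprc, the phosphatase CD45 of all leukocytes and a marker of the sort, stood at 1042, 1045 and 774 CPM in asGM1+ and 702, 1098 and 1086 CPM in asGM1- cells of Flt3L Panc02 tumours, against 866, 958 and 1049.8 CPM in asGM1+ and 1018, 965 and 1048 CPM in asGM1- cells of Panc02 tumours. Its groups overlapped, and its log2 fold change between tumour types in asGM1+ cells was -0.01 ± 0.17 (SE; edgeR adjusted p = 0.991). Ptpn6, the phosphatase SHP-1, averaged 1573 ± 19.9 CPM (SD, n = 3) in asGM1+ and 1277 ± 19.6 CPM in asGM1- cells of Flt3L Panc02 tumours, a log2 fold change of 0.30 ± 0.11 (edgeR adjusted p = 0.105). Ptpn22, a phosphatase partner of Csk, and Pag1, its membrane anchor, had 0.28 ± 0.14 and 0.17 ± 0.14 between tumour types in asGM1+ cells (edgeR adjusted p = 0.253 and 0.492). Of the ubiquitin ligases, Cblb had 0.31 ± 0.18 and Cbl -0.55 ± 0.20 between gates in Flt3L Panc02 tumours (edgeR adjusted p = 0.316 and 0.111). Sla and Sla2, adaptors that promote loss of the receptor from the surface, had 0.52 ± 0.14 and 0.21 ± 0.12 between tumour types in asGM1+ cells (edgeR adjusted p = 0.0507 and 0.322).

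In the branch that leads to Ras, Rasgrp1 and Dgka passed the test. Rasgrp1 encodes the Ras exchange factor that diacylglycerol activates. It stood at 51.2, 57.4 and 40.00 CPM in asGM1+ and 69.1, 102 and 86 CPM in asGM1- cells of Flt3L Panc02 tumours, against 56.9, 71.3 and 67.9 CPM in asGM1+ and 91.8, 72.7 and 71.4 CPM in asGM1- cells of Panc02 tumours. The asGM1+ libraries of Flt3L Panc02 tumours all lay below the asGM1- libraries of those tumours, with a log2 fold change of -0.79 ± 0.17 (SE; edgeR adjusted p = 0.0179). That call was retained in 3 of 6 runs that left out 1 library. In the mean of both tumour types the log2 fold change was -0.53 ± 0.12 (edgeR adjusted p = 0.0254), a call retained in 7 of 12 runs that left out 1 library. Dgka, a kinase that converts diacylglycerol to phosphatidic acid, stood at 173, 218 and 186 CPM in asGM1+ and 207, 306 and 267 CPM in asGM1- cells of Flt3L Panc02 tumours, against 94.6, 121 and 149 CPM in asGM1+ and 174, 183 and 206 CPM in asGM1- cells of Panc02 tumours. In each tumour type asGM1+ cells averaged less than asGM1- cells, and the lowest 3 libraries were asGM1+ cells of Panc02 tumours. Dgka was called lower in the mean gate effect, at -0.53 ± 0.13, and higher in asGM1+ cells of Flt3L Panc02 than of Panc02 tumours, at 0.66 ± 0.18 (edgeR adjusted p = 0.0285 and 0.0499). The second such kinase gene, Dgkz, had 0.89 ± 0.25 and Plcg1, the phospholipase that makes diacylglycerol, 0.47 ± 0.26 between tumour types in asGM1+ cells (edgeR adjusted p = 0.0604 and 0.287).

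At the far end of the pathway, Nfatc1, a transcription factor that calcium signals bring to the nucleus, rose between tumour types in asGM1+ cells. It stood at 386, 474 and 280.3 CPM in asGM1+ and 193, 355 and 309 CPM in asGM1- cells of Flt3L Panc02 tumours, against 155, 192 and 247 CPM in asGM1+ and 222, 226 and 213 CPM in asGM1- cells of Panc02 tumours. The log2 fold change of 0.94 ± 0.24 (SE; edgeR adjusted p = 0.0433) was the largest of the 11 called, and it was retained in 1 of 6 runs that left out 1 library. Nfatc2 had 0.23 ± 0.19 and Nfatc3 0.01 ± 0.22 in that comparison (edgeR adjusted p = 0.5 and 0.986). The 3 genes of the NF-kappaB branch were not called. Prkcq, the protein kinase C theta gene, had 0.44 ± 0.14, and Bcl10 and Malt1, partners in the complex downstream of it, 0.18 ± 0.10 and 0.03 ± 0.18 between tumour types in asGM1+ cells (edgeR adjusted p = 0.0879, 0.323 and 0.94). In asGM1- cells Malt1 had 0.60 ± 0.18, with its Flt3L Panc02 libraries all above the Panc02 ones (edgeR adjusted p = 0.0821).

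Whether the gate difference depended on tumour type was tested as an interaction, over the 12 libraries. By edgeR 0 of the 43 genes were called, where 0.377% of all genes were called, 0.0294% with a larger and 0.348% with a smaller log2 fold change in Flt3L Panc02 tumours. At an unadjusted p under 0.05 were 14 of the 43, and 3022 of all 20411 genes. DESeq2 called 4 and limma-voom 6 of the 43, all with a larger log2 fold change there. Of all genes DESeq2 called 227 with a larger and 625 with a smaller one, and limma-voom 263 and 523. Without asGM1+ replicate 3 of Panc02 tumours edgeR called 1 of the 43 and 257 of all genes. The interaction was 0.65 ± 0.13 (SE, log2 scale) for Ubash3a, 0.67 ± 0.17 for Def6, 0.73 ± 0.19 for Cd8b1 and 0.55 ± 0.17 for Lck (edgeR adjusted p = 0.0682, 0.108, 0.132 and 0.189). By edgeR, then, no gate effect of the 43 was shown to differ between tumour types. Ubash3a, Def6, Cd8b1 and Lck passed in DESeq2 (adjusted p = 0.00011, 0.0113, 0.0129 and 0.0495) and in limma-voom (adjusted p = 0.0124, 0.0234, 0.0274 and 0.0409). In the mean of both tumour types 3 genes fell (Txk, Dgka and Rasgrp1), 0 rose and 40 were not called, where 6.16% of all genes were called, 4.5% lower and 1.66% higher. That count was 1 without asGM1- replicate 2 or 3 or asGM1+ replicate 1 of Flt3L Panc02 tumours, and 0 without both Panc02 libraries numbered 1.

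**Figure D4:**
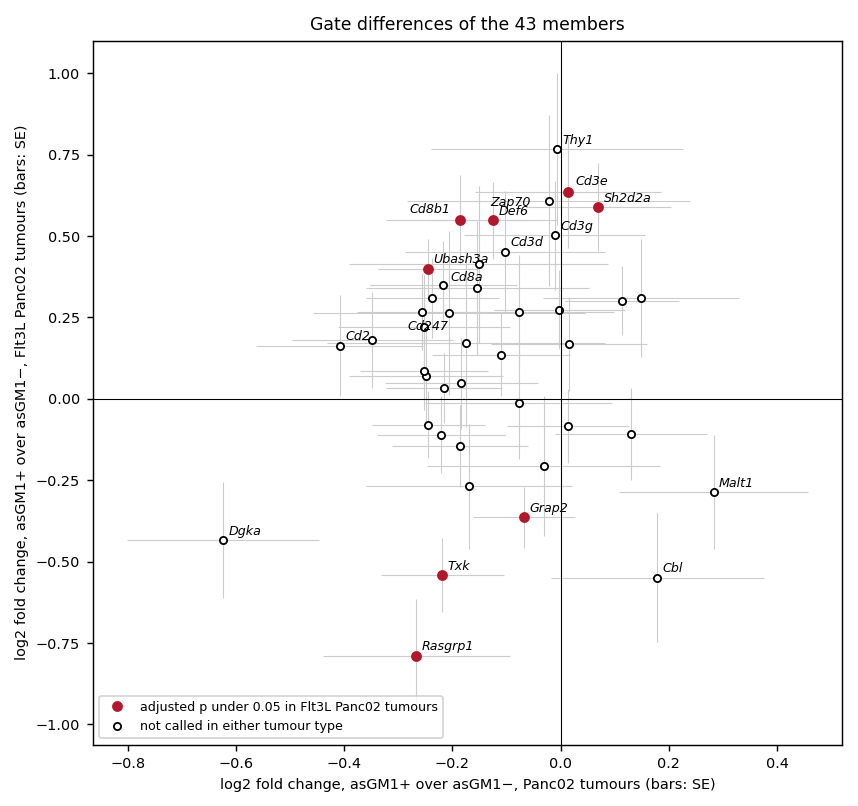
Log2 fold change of asGM1+ over asGM1- cells for each of the 43 genes in Panc02 tumours (horizontal axis) and in Flt3L Panc02 tumours (vertical axis), with SE bars, where red points passed an edgeR adjusted p of 0.05 in Flt3L Panc02 tumours. The 5 red points above 0 on the vertical axis have values between -0.24 and 0.07 on the horizontal axis, and Rasgrp1, Txk and Grap2 lie below 0 on both.

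Marker genes of other cell types moved with these comparisons. Between tumour types in asGM1+ cells, 4 of 15 macrophage and monocyte genes were called lower and 0 higher. The macrophage receptor gene Csf1r stood at 19.9, 23.2 and 21.7 CPM in Flt3L Panc02 and 102, 73.7 and 33.2 CPM in Panc02 tumours. Of 9 tumour epithelial and fibroblast genes (8 were tested) 3 were lower and 1 higher, with sums of 34.4 to 50.9 CPM in Flt3L Panc02 and 63.8 to 239.8 CPM in Panc02 tumours. Of 6 dividing-cell genes 2 were lower and 0 higher, with sums of 698 to 841 CPM in Flt3L Panc02 and 909 to 1040.5 CPM in Panc02 tumours, which did not overlap. In asGM1- cells 7 of 15 plasmacytoid dendritic cell genes were higher and 0 lower between tumour types, and 4 of 6 dividing-cell genes were lower and 0 higher. Conventional dendritic cell genes were higher there in 3 of 8 and tumour epithelial and fibroblast genes lower in 3 and higher in 1 of 9. Lists of other T cells were also called between tumour types. The gamma delta list of 8 had 1 gene higher in asGM1+ and 2 higher in asGM1- cells, with 0 lower in either. The list of 6 for CD4+ T cells, regulatory ones included, had 2 higher and 0 lower in asGM1+ cells. In asGM1- cells that list had 1 higher and 2 lower. Between gates in Flt3L Panc02 tumours, asGM1+ cells were lower in 10 of 15 genes of plasmacytoid dendritic cells (14 were tested), 6 of 8 of conventional dendritic cells, 4 of 8 of gamma delta T cells and 4 of 6 of CD4+ and regulatory T cells, with 0 higher in each list. Of 8 NK cell genes 2 were higher and 1 lower, with sums of 869 to 1185 CPM in asGM1+ and 671 to 854 CPM in asGM1- libraries. Of 15 macrophage and monocyte genes 1 was higher and 1 lower. The conventional dendritic cell genes summed to 18.2 to 27.4 CPM in asGM1+ and 109 to 119.8 CPM in asGM1- libraries there. Of 6 dividing-cell genes 3 were higher, with sums of 698 to 841 CPM in asGM1+ and 481 to 605 CPM in asGM1- libraries. Siglech, which marks plasmacytoid dendritic cells, stood at 4.56, 2.33 and 1.60 CPM in asGM1+ and 289.9, 262 and 253 CPM in asGM1- libraries there. The gates of Panc02 tumours differed in these lists too. Of 15 plasmacytoid dendritic cell genes (14 were tested) 8 were lower in asGM1+ cells there and 0 higher. The gamma delta list had 3 of 8 lower, and the list for CD4+ T cells 3 of 6, with 0 higher in each. Of 8 NK cell genes 1 was higher and 0 lower. The part of these other cell types in the gene results was not tested.

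Promoter windows are shown for the genes called in opposite directions between the gates of Flt3L Panc02 tumours, so that the sequences can be read beside the values. They come from RefSeq on build GRCm38.p6 (the submitters' processing notes name mm39), run from 250 bases before to 50 after the start of the transcript, and cover 3 of the 5 genes that rose and the 3 that fell. Capitals mark GGAAG, the core of ETS factor sites, TGTGGT, a RUNX site, and CTTTGA, a TCF/LEF site, on either strand (on the reverse strand CTTCC, then ACCACA, then TCAAAG), and none of these strings contains another. For Txk the first of 2 listed start sites is shown. Rose between gates, Cd3e (chr9:45009562-45009861, minus strand), Def6 (chr17:28207528-28207827, plus strand) and Ubash3a (chr17:31207816-31208115, plus strand):
Cd3e: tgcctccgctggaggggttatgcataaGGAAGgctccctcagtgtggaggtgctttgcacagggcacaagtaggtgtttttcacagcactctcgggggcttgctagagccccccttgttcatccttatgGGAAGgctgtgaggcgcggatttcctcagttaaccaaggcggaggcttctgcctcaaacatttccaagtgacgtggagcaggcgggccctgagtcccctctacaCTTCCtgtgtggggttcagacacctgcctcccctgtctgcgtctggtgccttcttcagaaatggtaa
Def6: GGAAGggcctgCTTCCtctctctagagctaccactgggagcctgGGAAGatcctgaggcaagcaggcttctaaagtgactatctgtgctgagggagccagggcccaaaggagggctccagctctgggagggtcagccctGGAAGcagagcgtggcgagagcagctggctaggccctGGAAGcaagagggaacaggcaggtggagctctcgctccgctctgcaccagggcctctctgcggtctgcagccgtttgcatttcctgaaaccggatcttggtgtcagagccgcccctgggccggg
Ubash3a: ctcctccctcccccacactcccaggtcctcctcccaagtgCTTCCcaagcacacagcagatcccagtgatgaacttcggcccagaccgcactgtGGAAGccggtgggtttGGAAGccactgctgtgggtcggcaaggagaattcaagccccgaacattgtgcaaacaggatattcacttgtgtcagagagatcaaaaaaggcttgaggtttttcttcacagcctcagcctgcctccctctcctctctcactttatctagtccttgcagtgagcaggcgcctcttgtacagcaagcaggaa
Fell between gates, Txk (chr5:72752728-72753027, minus strand), Grap2 (chr15:80623233-80623532, plus strand) and Rasgrp1 (chr2:117342828-117343127, minus strand):
Txk: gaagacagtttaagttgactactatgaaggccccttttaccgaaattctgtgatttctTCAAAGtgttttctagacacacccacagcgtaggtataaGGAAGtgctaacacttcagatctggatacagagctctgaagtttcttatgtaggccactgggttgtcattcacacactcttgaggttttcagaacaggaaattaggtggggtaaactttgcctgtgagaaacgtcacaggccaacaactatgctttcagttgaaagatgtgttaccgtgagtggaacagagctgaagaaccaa
Grap2: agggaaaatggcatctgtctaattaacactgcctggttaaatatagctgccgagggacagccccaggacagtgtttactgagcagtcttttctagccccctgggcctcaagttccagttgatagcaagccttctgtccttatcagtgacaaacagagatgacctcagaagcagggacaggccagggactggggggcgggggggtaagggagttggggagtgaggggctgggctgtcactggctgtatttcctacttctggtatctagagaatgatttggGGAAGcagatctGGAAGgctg
Rasgrp1: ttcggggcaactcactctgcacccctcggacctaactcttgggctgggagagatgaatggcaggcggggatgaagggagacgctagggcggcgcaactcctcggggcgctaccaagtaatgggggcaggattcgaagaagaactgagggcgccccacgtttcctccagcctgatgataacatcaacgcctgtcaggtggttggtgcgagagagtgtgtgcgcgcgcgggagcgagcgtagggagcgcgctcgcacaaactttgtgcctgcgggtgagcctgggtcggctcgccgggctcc

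The GGAAG letters occurred 3, 5 and 3 times in the windows of Cd3e, Def6 and Ubash3a, and 1, 2 and 0 times in those of Txk, Grap2 and Rasgrp1. CTTTGA occurred once, in the Txk window shown, and TGTGGT in none of the 6. The window of the second Txk start held 1 TGTGGT on the reverse strand, 1 GGAAG and 0 CTTTGA. Of the 43 genes 33 had a listed window, 48 windows in all, of which 81.2% held GGAAG, 12.5% TGTGGT and 18.8% CTTTGA. Over all 32851 windows of the table the shares were 71.4%, 16.8% and 16%. These are shares of windows with at least 1 occurrence, so they give no reference for counts per window. A link of these letters to the direction of the gate calls was not tested.

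Set against length, the genes covered a wide range of levels, as the median over the 12 libraries of CPM per kilobase of merged exons. Cd8b1 was highest at 1029, then Lck at 762, Cd8a at 557, Ptpn6 at 495, Cd3g at 488 and Cd3d at 465. Cd3e stood at 219 and Cd247 at 71.9 on this scale, and Malt1 was lowest at 2.44, below Pag1 at 3.28 and Cbl at 3.45. The ratio of the highest to the lowest library of a gene was between 1.31 for Bcl10 and 3.23 for Dgka.

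The other genes of the pathway were 67 in a list that held none of the 43. In asGM1+ cells 6 rose, 2 fell and 59 were not called between Flt3L Panc02 and Panc02 tumours (6.32% of all genes were called), and in asGM1- cells 5 rose, 0 fell and 62 were not called (3.73%). Between the gates 5 rose and 7 fell in Flt3L Panc02 tumours (8.65% of all genes were called), and 0 rose and 2 fell in Panc02 tumours (0.882%). Their median log2 fold changes were 0.18, 0.08, 0.06 and -0.06 in these 4 comparisons, against -0.03, 0.0016, -0.01 and 0.02 over all genes.

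Trat1, the transmembrane adaptor TRIM of the receptor, fell between the gates in both tumour types. It stood at 5.10, 5.74 and 6.76 CPM in asGM1+ and 25.7, 27.9 and 23.9 CPM in asGM1- cells of Flt3L Panc02 tumours, a log2 fold change of -2.14 ± 0.27 (SE; edgeR adjusted p = 0.000891). In Panc02 tumours it stood at 4, 1.78 and 2.83 CPM in asGM1+ and 16.3, 13 and 10.3 CPM in asGM1- cells, at -2.20 ± 0.27 (edgeR adjusted p = 0.00218). These groups did not overlap. Rhoh, a haematopoietic GTPase that brings ZAP-70 to the membrane, also fell in both, by log2 fold changes of -0.39 ± 0.08 and -0.55 ± 0.08 (edgeR adjusted p = 0.0122 and 0.00632), and was called higher in Flt3L Panc02 tumours in either gate. Trat1 was called higher in Flt3L Panc02 tumours in asGM1+ cells, at 1.03 ± 0.26 (edgeR adjusted p = 0.0414). In asGM1- cells Trat1 had 0.97 ± 0.26 and was not called (edgeR adjusted p = 0.0602).

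Orai1, the pore of the store-operated calcium channel, stood at 201, 218 and 234 CPM in Flt3L Panc02 and 114, 126 and 139 CPM in Panc02 tumours in asGM1+ cells, a log2 fold change of 0.79 ± 0.12 (SE; edgeR adjusted p = 0.00761). Itpr1 and Itpr2, calcium release channels, and Tespa1, which binds such channels, fell between the gates of Flt3L Panc02 tumours, with -0.95 ± 0.18, -0.91 ± 0.14 and -1.12 ± 0.18 (edgeR adjusted p = 0.00938, 0.00253 and 0.00341). Between tumour types Itpr1 fell in asGM1+ cells, at -0.76 ± 0.18, and Itpr2 rose in asGM1- cells, at 0.83 ± 0.14 (edgeR adjusted p = 0.0346 and 0.0109). Of the same list, the calcium sensor genes Stim1 and Stim2, the release channel gene Itpr3 and the calcineurin genes Ppp3ca, Ppp3cb, Ppp3cc and Ppp3r1 were not called in any of these 4 comparisons. Itpkb, a kinase of inositol trisphosphate, rose in Flt3L Panc02 tumours by 0.67 ± 0.17 in asGM1+ and 0.98 ± 0.18 in asGM1- cells (edgeR adjusted p = 0.0458 and 0.0151). On the Ras side, Mapk3, the kinase ERK1, and Hras rose between the gates of Flt3L Panc02 tumours, with 0.87 ± 0.18 and 0.52 ± 0.13 (edgeR adjusted p = 0.0119 and 0.0319). Ubash3b, the STS-family paralog of Ubash3a, stood at 365, 416 and 355 CPM in asGM1+ and 191, 247 and 291 CPM in asGM1- cells of those tumours. It rose there by 0.64 ± 0.15 (edgeR adjusted p = 0.026), and between tumour types in asGM1+ cells by 0.58 ± 0.15 (edgeR adjusted p = 0.0454).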

How the data were processed

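Groups and replicate numbers came from the sample titles. The submitters' processing notes name the aligner HISAT2, the assembler StringTie and the build mm39. The sources used here give no version, annotation or strand setting. The values the authors deposited are estimated counts (expected counts) per gene, whole numbers, so rounding changed 0 values. Small values peaked at 3, 6, 9 and 11, so 1 count is not 1 fragment. All 12 columns belong to these samples.

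edgeR 4.0.16 in R 4.3.3 was used with TMM factors, filterByExpr (20411 genes kept) and a robust quasi-likelihood fit of 4 group means over 12 libraries, with Benjamini-Hochberg adjustment over all genes and calls under 0.05. SE is the absolute log2 fold change over the square root of F. Alternatives were DESeq2 1.42.0 size factors and test, limma-voom (limma 3.58.1) with quality weights, other filters (none, or 5 CPM in 3 libraries), fits to the compared libraries alone, a replicate block and leaving out each library. The block was the replicate number, within tumour type for gate and interaction tests and across tumour types for the tumour comparisons. The edgeR step was tested on simulated counts. Members and lists were chosen with earlier results of these data known. Values in every library are given for a fixed panel of 9 genes and for genes called in any comparison. Ptprc was added to these after its values were seen. Exon lengths came from GENCODE M21 (GRCm38), where 96.4% of tested genes had one. Of the other pathway genes, up to 3 called per direction and comparison, by p, could be named. The calcium sensor, release channel and calcineurin genes that were not called were named outside this rule.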

Additional observations from a re-analysis of the deposited data

How the results depend on the processing

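Every gene of the 43 that was called kept the sign of its fold change under the alternatives run. Of 4042 single-gene values under alternatives 3836 kept their side of the threshold, 78 passed it newly and 128 lost it. Where a gene was called in the main fit or the alternative, 0 values changed sign. Values called in neither could change sign and were counted as kept. How many genes passed depended on the test and on single libraries. The comparisons are given as asGM1+ against asGM1- in Panc02, in Flt3L Panc02 and in the mean of both, then Flt3L Panc02 against Panc02 in asGM1- and in asGM1+, then the interaction. DESeq2 called 1, 11, 6, 2, 20 and 4 of the 43, and 574, 3215, 2342, 2179, 2952 and 852 of all genes. Limma-voom called 3, 12, 4, 9, 20 and 6, and 831, 2805, 2528, 3536, 3120 and 786 of all genes, where the edgeR counts were 0, 8, 3, 1, 11 and 0, and 180, 1765, 1257, 762, 1289 and 77. Without a filter the single call in asGM1- cells was lost (0), and the stricter filter gave 2 there and 134 interaction calls over all genes. A fit to the compared libraries alone gave 1 of 43 between gates in Flt3L Panc02 (1085 of all genes), and 0 between tumour types in asGM1- and 0 in asGM1+ cells (1 of all genes). Leaving out 1 library gave 0 to 0, 1 to 7, 1 to 3, 0 to 2, 1 to 18 and 0 to 1 of the 43, and 99 to 225, 779 to 1977, 821 to 1608, 98 to 1009, 219 to 1746 and 1 to 257 of all genes. Without both Panc02 libraries numbered 1, an alternative chosen after seeing the data, the mean gate effect had 0 of 43, the tumour effect 0 in asGM1- and 1 in asGM1+ cells, and over all genes 107 were called between gates in Panc02, 500 and 396 between tumour types in asGM1- and asGM1+ cells, and 12 in the interaction. With a block for replicate number within tumour type, 1 of 43 was called between gates in Panc02, and 190 of all genes in the interaction. With a different block, for replicate number across tumour types, 17 of 43 were called between tumour types in asGM1+ cells. The main fit did not take the replicate numbers as pairs. The deposited columns number both gates of a tumour type alike, and the sample titles do not say whether equal numbers share a tumour. If they do, the gate tests ignore that pairing. Deviations of same-numbered libraries correlated at 0.0952 to 0.284 between gates in Panc02, 0.0224 to 0.104 in Flt3L Panc02, -0.094 to -0.0298 between tumour types in asGM1- and -0.0265 to 0.0742 in asGM1+ cells. In these 4 comparisons 6, 5, 0 and 2 of 6 libraries correlated best with their own number. The cause of these shifts was not tested.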

Other observations

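The ratio of Cd3e to Cd3d, genes of chains that pair with each other, varied between libraries of the same group. As CPM of Cd3e over CPM of Cd3d it was 1.25, 1.55 and 0.998 in asGM1+ and 0.684, 1.47 and 1.21 in asGM1- replicates 1, 2 and 3 of Flt3L Panc02 tumours. In Panc02 tumours it was 0.999, 1.18 and 1.11 in asGM1+ and 1.18, 1.01 and 0.887 in asGM1- replicates. The 3 lowest ratios were those of asGM1+ replicate 3 and asGM1- replicate 1 of Flt3L Panc02 and asGM1- replicate 3 of Panc02 tumours. In these libraries the longest genes (merged exons over 6641 bases) stood lowest, at median log2 deviations of -0.20, -0.11 and -0.063. In asGM1+ replicate 1 of Panc02 tumours, whose ratio of 0.999 nearly tied with 0.998, they stood at -0.015. Merged exons span 4080 bases for Cd3e, which is not among these longest genes, and 1815 for Cd3d. The part of gene length in this ratio was not tested.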
